A study of Rattus norvegicus with 14 samples.

Results

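Kainate receptors are ionotropic glutamate receptors, and their 5 subunits are encoded by Grik1, Grik2, Grik3, Grik4 and Grik5. All probe sets of the array whose annotation names 1 of these genes alone were taken, which gave 5 probe sets of 15923, 1 for each gene, and 5 genes of 10412 named alone. Their levels were described in CA3, the hippocampal subfield next to the dentate gyrus, in 7 control and 7 learning activated rats, with 1 array per rat. The probe sets of Grik2, Grik4 and Grik5 were bright enough to be tested, and those of Grik1 and Grik3 were dim. None of the 3 tested subunits passed the test between the groups, and each of their 95% intervals lay within a change of 1.16-fold in either direction.

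All rats were male Long-Evans animals of 3 to 4 months first trained in the usual spatial version of the water maze. A single session in another pool followed 2 to 3 weeks later, with 8 trials at intervals of 8 min. The learning activated group (called learning here) swam with orienting cues to a visible platform whose place was constant, whereas the control group had no informative cues and a visible platform that moved. Every rat had a 90 s probe trial without the platform 1 h later and was killed directly afterwards, so both groups swam and differed in cues and platform movement together. The question, from the study's title, is whether transcript levels in CA3 differ after information has been encoded rapidly.

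A kainate receptor is a channel of 4 subunits that opens when glutamate binds. The subunits encoded by Grik1, Grik2 and Grik3 can form a channel without other kinds of subunit, whereas those encoded by Grik4 and Grik5 bind glutamate with higher affinity and need a partner of the first kind. In CA3, kainate receptors carry a slow current at the synapse between the mossy fibres of dentate granule cells and CA3 pyramidal cells, act on release from the mossy fibre endings, and underlie the sensitivity of CA3 to kainate. Grik4 is known for its high expression in CA3 pyramidal cells, and Grik1 for its expression in interneurons.

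Values are log2 levels made with GCRMA, a method that subtracts a background modelled from probe sequence, puts the arrays on a common scale and gives 1 value per probe set. A probe set was called dim if its mean over the 14 arrays lay below the 40th percentile of all probe sets, a log2 level of 3.88. Levels of different probe sets were not ranked, because probes differ in affinity. In homogenised tissue, fewer cells of a type and less RNA per cell cannot be told apart.

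Grik2 encodes the subunit that forms the channel core of the mossy fibre receptor. Its log2 level ran from 6.42 to 6.87 with a median of 6.72 in control rats, and from 6.45 to 6.79 with a median of 6.68 in learning rats. The groups overlapped over nearly their whole ranges. The lowest control value was that of replicate 5, and the lowest learning value that of replicate 7. The means were 6.70 ± 0.15 (SD, n = 7) and 6.65 ± 0.14 (SD, n = 7), a difference of -0.050 (learning minus control, SE 0.075, 95% interval -0.21 to 0.11, adjusted p = 0.759 by limma). As a fold this was 0.966, with an interval from 0.865 to 1.08.

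Grik4, the high-affinity subunit typical of CA3, ran from 7.68 to 8.17 in log2 level with a median of 7.97 in control rats. In learning rats it ran from 7.76 to 8.10 with a median of 7.94, wholly inside the control range. Control replicates 2 and 3 were the lowest arrays of all, at 7.68 and 7.73, and control replicate 4 was the highest. The means were 7.95 ± 0.19 in control and 7.94 ± 0.11 in learning rats (SD, n = 7 each), and the difference was -0.015 (SE 0.077, 95% interval -0.18 to 0.15, adjusted p = 0.936 by limma). The fold was 0.99, with an interval from 0.883 to 1.11. The control SD was the larger one, and a difference in spread was not tested.

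Grik5, the high-affinity subunit found widely in the brain, ran from 7.41 to 7.87 in log2 level with a median of 7.61 in control rats. In learning rats it ran from 7.45 to 7.63 with a median of 7.59, again inside the control range. Control replicate 3 was the highest array and control replicate 6 the lowest. The means were 7.61 ± 0.15 and 7.57 ± 0.07 (SD, n = 7 each), a difference of -0.039 (SE 0.060, 95% interval -0.17 to 0.09, adjusted p = 0.763 by limma), or a fold of 0.973 with an interval from 0.891 to 1.06.

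**Figure D1:**
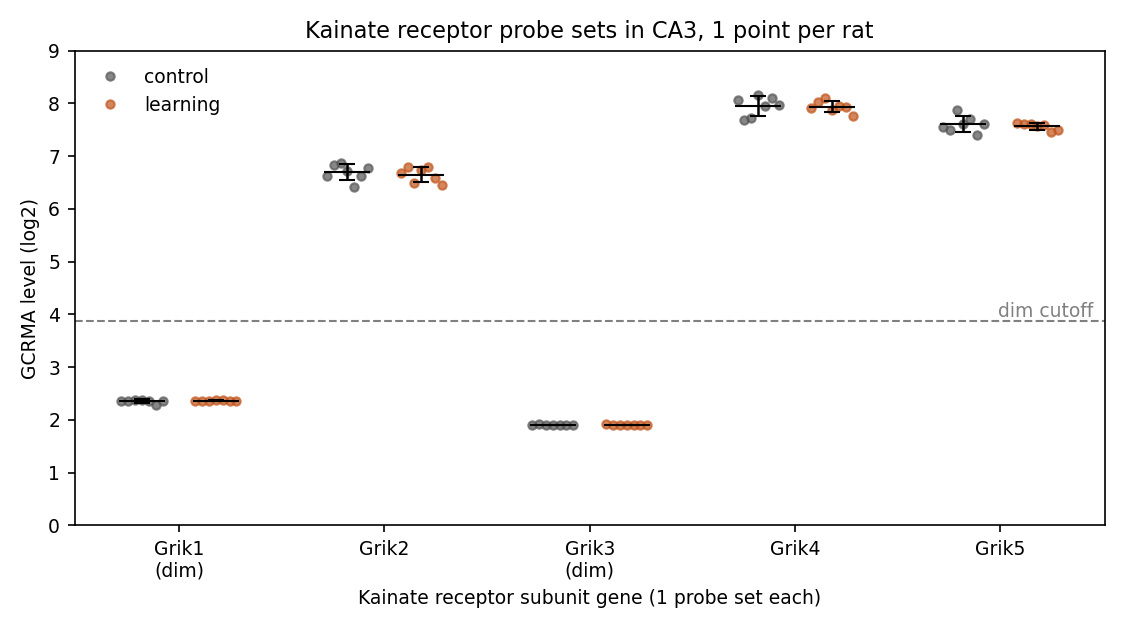
GCRMA log2 level (vertical axis) of the 5 kainate receptor probe sets in control (grey) and learning (orange) rats, 1 point per rat, with the mean and SD in black (n = 7 per group). The points of both groups overlap for every subunit, and Grik1 and Grik3 lie below the dashed dim cutoff of 3.88.

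Thus 0 of the 3 tested kainate receptor probe sets were called by limma at an adjusted p under 0.05, and 0 had an unadjusted p under 0.05. Of all 9525 probe sets tested, 3.35% were called, 2.55% higher and 0.798% lower, so a count of 0 among 3 is near that background and says nothing particular about this family. An unadjusted p under 0.05 was found for 1898 of the 9525, and 0 among 3 is no particular result there either. For each subunit, 3 learning rats lay above the control mean and 4 below it. With its own SE, a difference of 0.29 (1.22-fold) would have been needed for a call of Grik2, 0.29 (1.23-fold) for Grik4 and 0.23 (1.17-fold) for Grik5. Smaller changes would not have been called with 7 arrays a group. The median size of the difference over all tested probe sets was 0.065, above that of each subunit.

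The dim subunits gave almost constant values. Grik1, the subunit known from interneurons, lay between 2.28 and 2.38 with a median of 2.36 in control arrays and between 2.36 and 2.39 with a median of 2.36 in learning arrays. Grik3, which encodes a subunit of low glutamate sensitivity found also at mossy fibre endings, had a log2 level of 1.91 in control and 1.91 in learning arrays, with SDs of 0.0029 and 0.0043. Without the dim filter the fitted differences were 0.0099 (SE 0.013) for Grik1 and -0.0019 (SE 0.0046) for Grik3. Both lie far below the dim cutoff, where GCRMA compresses differences, so a change of either transcript could not be measured at these probe sets. A dim probe set does not show that the transcript is absent from CA3.

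The shape of the family was also compared, by asking whether 1 subunit moved relative to another within the same arrays. Since levels of different probe sets cannot be ranked, the log2 difference between a pair of subunits serves only to compare groups. Grik2 minus Grik4 averaged -1.26 ± 0.30 in control and -1.29 ± 0.16 in learning rats (SD, n = 7 each), a shift of -0.035 with a 95% interval from -0.32 to 0.25 (two-sided exact permutation p = 0.788, adjusted p = 0.906). For Grik2 minus Grik5 the shift was -0.011 with an interval from -0.20 to 0.18 (exact permutation p = 0.906, adjusted p = 0.906). For Grik4 minus Grik5 it was 0.024 with an interval from -0.21 to 0.27 (exact permutation p = 0.844, adjusted p = 0.906). These were all 3 pairs of tested subunits.

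Within the same rat the subunits could deviate in opposite directions. In control rats, replicate 3 had the highest Grik2 and Grik5 values, 0.17 and 0.26 above the group mean, and the second lowest Grik4 value, -0.23 from it. Control replicate 2 was above the mean for Grik2 by 0.14 and stood at -0.27 for Grik4. In learning rats, replicate 3 also had opposite signs, at -0.16 for Grik2 and 0.16 for Grik4. Learning replicate 7 was below the mean for all 3 subunits, with deviations of -0.20 for Grik2, -0.18 for Grik4 and -0.07 for Grik5.

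**Figure D2:**
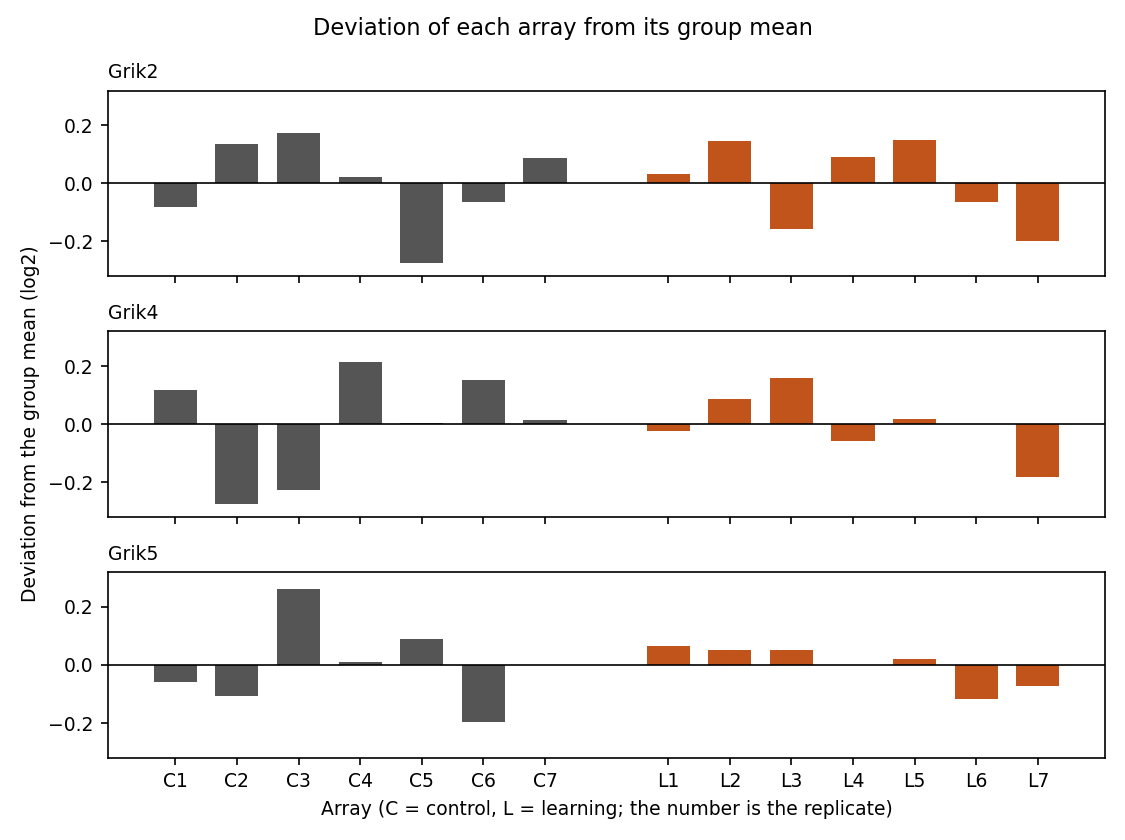
Deviation of each array from its group mean (log2, vertical axis) for Grik2, Grik4 and Grik5, with 7 control arrays (C1 to C7, grey) and 7 learning arrays (L1 to L7, orange). Control replicates 2 and 3 are above the mean for Grik2 and below it for Grik4, and learning replicate 3 is the other way round. Learning replicate 7 is below the mean for all 3.

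Across the 7 control arrays, Grik2 and Grik4 had a Pearson r of -0.53 (exact permutation p = 0.229, adjusted p = 0.603) and a Spearman rho of -0.46 (exact permutation p = 0.302, adjusted p = 0.783), with r = -0.76 without the 2 arrays farthest from the Grik2 median. Across the 7 learning arrays r was 0.22 (exact permutation p = 0.627, adjusted p = 0.703) and rho 0.29 (exact permutation p = 0.556, adjusted p = 0.783). For Grik4 and Grik5, r was -0.38 in control (exact permutation p = 0.402, adjusted p = 0.603) and 0.55 in learning arrays (exact permutation p = 0.205, adjusted p = 0.603). For Grik2 and Grik5, r was 0.17 in control (exact permutation p = 0.703, adjusted p = 0.703) and 0.45 in learning arrays (exact permutation p = 0.315, adjusted p = 0.603). Without the 2 arrays farthest from the median of the first-named subunit, r for Grik2 and Grik4 in learning arrays was 0.41. For Grik4 and Grik5 it was then -0.48 in control and 0.20 in learning arrays. For Grik2 and Grik5 it was 0.32 in control and 0.72 in learning arrays. Over these 6 relations rho lay between -0.46 and 0.46, with 0.783 as the lowest adjusted exact permutation p. Neither r nor rho passed for any pair, and the difference between the groups in these correlations was not tested.

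The pooled SD was 0.148 for Grik2, 0.153 for Grik4 and 0.115 for Grik5, against a median of 0.111 over all tested probe sets. These stand at the 71st, 73rd and 53rd percentiles of that distribution, as a description.

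Other transcripts that followed each subunit across the 14 arrays, after the group means were taken out, were named by a fixed rule of the 3 highest Pearson correlations among 7968 probe sets of other genes. For Grik2 they were Septin9, a cytoskeletal GTP-binding protein (r = 0.88), the transcription elongation factor Supt6h (r = 0.85) and the glutaredoxin Glrx (r = 0.83). For Grik4 they were the iron-sulphur cluster protein Isca1 (r = 0.87), Taf6 of the general transcription machinery (r = 0.85) and Jkamp (r = 0.83). For Grik5 they were Cacnb3, an accessory subunit of voltage-gated calcium channels (r = 0.86), Myadm (r = 0.86) and Arcn1, a coat protein of transport vesicles (r = 0.82). None of these 9 probe sets was called between the groups, where 3.35% of all tested probe sets were. The lowest of their adjusted p-values by limma was 0.0996, for Glrx. The points of each correlation share the array and its RNA preparation, and the highest values of so many candidates are large by selection.

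AMPA and NMDA receptor subunits, the other ionotropic glutamate receptors of the synapse, were set beside the kainate subunits at their brightest tested probe sets. Gria1, an AMPA receptor subunit, rose by 0.66 (SE 0.090, adjusted p = 0.00323 by limma), and Grin2a, an NMDA receptor subunit, rose by 1.47 (SE 0.22, adjusted p = 0.00323). Gria2 had 0.08 (adjusted p = 0.507), Gria3 0.055 (adjusted p = 0.646), the obligatory NMDA subunit Grin1 -0.0082 (adjusted p = 0.943) and Grin2c -0.11 (adjusted p = 0.396). Gria3 rose at its other probe set (1.19, adjusted p = 0.00249). Gria4, Grin2b, Grin2d, Grin3a and Grin3b were dim.

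The difference between these changes and those of the kainate subunits was tested within arrays, over all 18 pairs of 6 such genes with 3 kainate subunits. Gria1 rose more than Grik2 by 0.71 (95% interval 0.44 to 0.99, two-sided exact permutation p = 5.83e-04, adjusted p = 0.0021), more than Grik4 by 0.68 (interval 0.43 to 0.93, exact permutation adjusted p = 0.0021) and more than Grik5 by 0.70 (interval 0.43 to 0.96, exact permutation adjusted p = 0.0035). Grin2a rose more than Grik2 by 1.52, more than Grik4 by 1.49 and more than Grik5 by 1.51 (exact permutation adjusted p = 0.0021 for each). The raw p of 5.83e-04 is the smallest that the assignments of 14 arrays to the groups can give. The other 12 pairs, those of Gria2, Gria3, Grin1 and Grin2c, did not pass, with adjusted exact permutation p-values from 0.466 to 0.942. At the brightest probe sets the kainate subunits thus differed from Gria1 and Grin2a but were not distinguished from Gria2, Gria3, Grin1 and Grin2c. The other probe set of Gria3, which rose by 1.19, was not compared with them. The rises of Gria1 and Grin2a were known when these pairs were formed, so the tests are no independent evidence of them. Gria1 has 1 probe set, and Grin2a had 0.23 at its other one (adjusted p = 0.102 by limma).

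**Figure D3:**
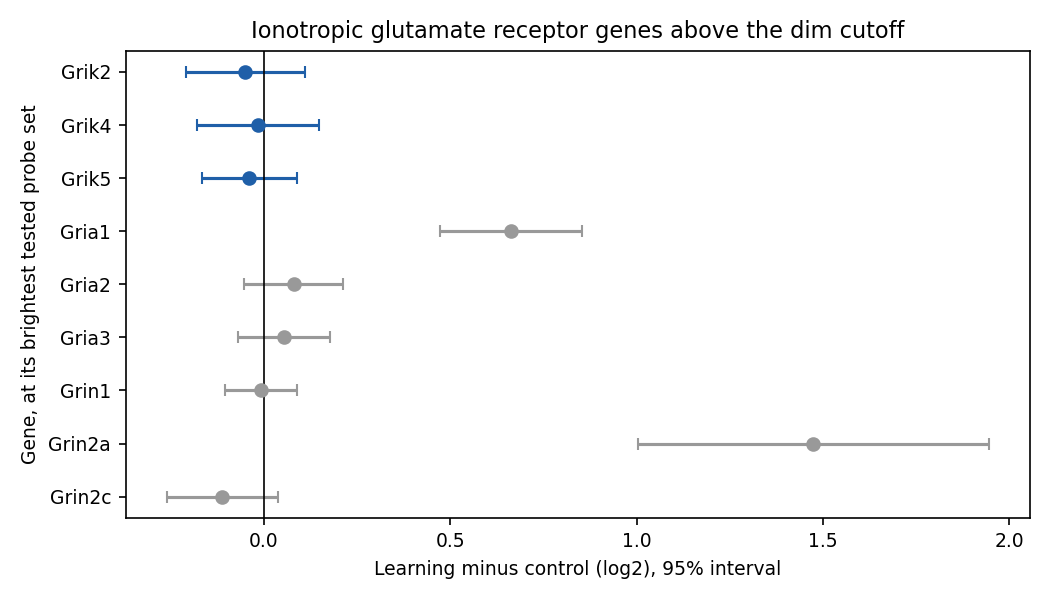
Learning minus control difference (log2, horizontal axis) with its 95% interval from limma for the ionotropic glutamate receptor genes above the dim cutoff, kainate subunits in blue and AMPA and NMDA subunits in grey (n = 7 rats per group). Each gene is shown at its brightest tested probe set only. The 3 kainate subunits lie around 0 with Gria2, Gria3, Grin1 and Grin2c, while Gria1 at 0.66 and Grin2a at 1.47 stand to the right.

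Genes known to act with kainate receptors were taken as lists: auxiliary subunits, scaffold and trafficking partners, synaptic organisers, turnover and sumoylation, RNA editing, calcium signalling with phosphorylation, and glutamate uptake and release. Of 41 such genes 28 were tested, 4 were dim and 9 were not analysed here, among them the auxiliary subunits Neto1 and Neto2 and the mossy fibre organiser C1ql2. At their brightest probe sets 3 of the 28 rose and 0 fell in limma, and 4 others rose only at a dimmer probe set. At an unadjusted p under 0.05 there, 9 were higher and 2 lower, where 6.33% of all 6839 tested genes were higher and 12.3% lower at that threshold. Over all 6839 genes tested, 1.59% were called higher and 0.98% lower at their brightest probe set, and 3.90% were called at any. The median difference was 0.071 over the 28 partners and -0.027 over all genes. The lists were chosen with earlier results known, so these counts are a description.

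Among the enzymes of calcium signalling and phosphorylation, 2 of 8 rose at their brightest probe set and 2 others at a dimmer one. Camk2a, a subunit of the main postsynaptic calcium/calmodulin kinase, lay between 8.94 and 9.83 in control and between 9.88 and 10.47 in learning rats, with no overlap (difference 0.76, SE 0.15, adjusted p = 0.0150 by limma). It rose also at a dimmer probe set (0.54) but had 0.037 at its remaining one (adjusted p = 0.953). The control mean of that dimmer probe set was 3.89, close to the dim cutoff of 3.88. Prkca, a protein kinase C, had 6.27 to 6.95 in control and 7.07 to 8.04 in learning rats, again apart (0.72, SE 0.15, adjusted p = 0.0210). The catalytic subunit Ppp3cb of the phosphatase calcineurin rose at a dimmer probe set by 0.41 (adjusted p = 0.00581) and had 0.062 at its brightest, and the regulatory subunit Ppp3r1 rose by 0.74 (adjusted p = 0.0423) against 0.077 at its brightest. Ppp3ca, the other catalytic subunit measured, had 0.070 (brightest probe set, adjusted p = 0.249) and 0.18 at its dimmer one (adjusted p = 0.0684 by limma). Among all 9525 tested probe sets, the groups did not overlap in 2.10%.

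Of the 11 tested scaffold and trafficking partners, Pfn2 and Cdh2 were called. Pfn2, an actin-binding profilin that can bind a splice form of the Grik2 subunit, rose at both its probe sets, by 0.15 (SE 0.037, adjusted p = 0.0444) and 0.40 (SE 0.077, adjusted p = 0.0125). Cdh2, the adhesion protein N-cadherin, rose at its dimmer probe set (0.32, adjusted p = 0.0200) and had 0.091 at the brighter one (adjusted p = 0.435). Snap25, a fusion protein of synaptic vesicles that also binds the Grik5 subunit, had 0.12 (adjusted p = 0.0820). In the list of uptake and release, 0 of 4 tested genes were called (2 were higher at an unadjusted p under 0.05, against 6.33% of all genes), and the glutamate transporter Slc1a2 had 0.45 (SE 0.14, adjusted p = 0.0859).

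RNA of Grik1 and Grik2 is edited by adenosine deaminases, which changes an amino acid of the pore and with it the passage of calcium. Adarb1, the main enzyme for this site, was lower in all control rats than in any learning rat at its dimmer probe set, with 6.61 to 7.55 against 7.61 to 8.95 (difference 0.87, SE 0.21, adjusted p = 0.0366 by limma). At its brighter probe set it lay between 9.78 and 10.14 in control and between 9.74 and 10.03 in learning rats (difference -0.040, adjusted p = 0.765). The array reads transcript level and not editing, so the edited share of Grik2 was not measured.

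**Figure D4:**
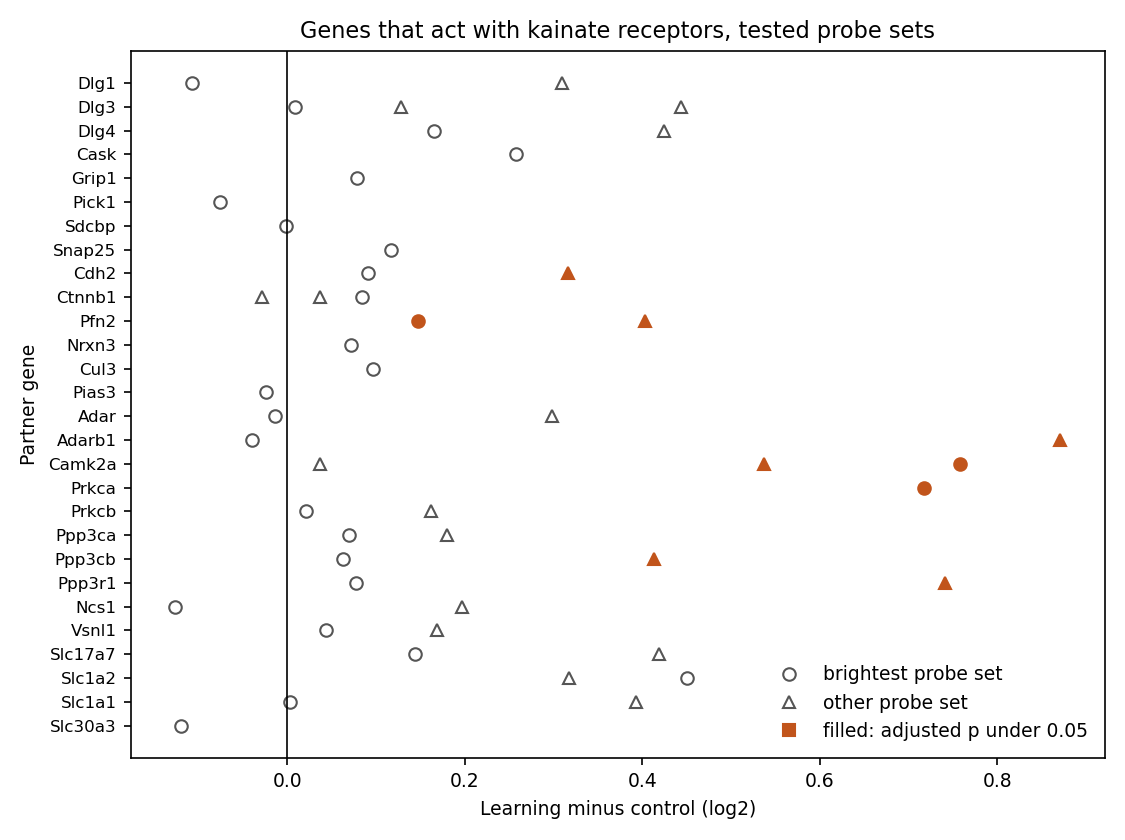
Learning minus control difference (log2, horizontal axis) at every tested probe set of the 28 partner genes, circles for the brightest probe set of a gene and triangles for the others, filled where the adjusted p was under 0.05 (n = 7 rats per group). Filled circles are those of Pfn2, Camk2a and Prkca, and the filled triangles of Adarb1, Ppp3r1, Ppp3cb and Cdh2 lie to the right of the same gene's open circle.

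Any 2 arrays correlated at 0.983 to 0.995 over the tested probe sets. The CA3 markers Bok, Nptx1 and Prkcd were above the dim cutoff and Socs2 was dim, while markers of CA1 (6 of 6), CA2 (4 of 5), dentate granule cells (2 of 4, Calb1 and Prox1) and interneurons (9 of 9) were above it as well. The mean level of the CA1 markers ran from 6.30 to 7.63 in control and from 6.68 to 7.35 in learning rats, and that of the dentate markers from 6.18 to 7.26 and from 6.42 to 7.02. Neither passed a two-sided exact permutation test between the groups (p = 0.916, adjusted p = 0.969, and p = 0.406, adjusted p = 0.531, over 15 measures). The astrocyte mean was 0.22 higher in learning rats (exact permutation p = 0.00117, adjusted p = 0.00874), with 3 of 11 probe sets called, though each of its 6 genes had a difference below 0 at its brightest one, and the mean of the choroid plexus markers Ttr and Kcne2 was lower (learning minus control -1.04, exact permutation p = 0.00175, adjusted p = 0.00874). That mean was carried by Ttr, which fell (-2.09, adjusted p = 0.0125 by limma), while Kcne2 had 0.010 (adjusted p = 0.935) and Kl, Folr1 and Cldn2 were dim. The part of the astrocyte, choroid plexus and CA1 signals in the results was not tested.

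Since Grik4 marks CA3 and Grik1 interneurons, the tested subunits were also set against the marker means of neighbouring tissue within each group. Of 18 relations none passed. The steepest were Grik2 with the CA1 mean in control rats (r = 0.72, exact permutation p = 0.0718, adjusted p = 0.825; rho = 0.36, exact permutation p = 0.444, adjusted p = 0.889), which was -0.15 without the 2 farthest arrays, and Grik4 with the dentate mean in control rats (r = -0.65, exact permutation p = 0.0917, adjusted p = 0.825; rho = -0.68, exact permutation p = 0.110, adjusted p = 0.889), which was -0.13 without them. Both r values were smaller in size without those arrays, but leaving them out also narrows the range of the marker mean. In the opposite way, Grik4 with the CA1 mean in learning rats had r = -0.18 (exact permutation p = 0.719, adjusted p = 0.904; rho = -0.07, exact permutation p = 0.906, adjusted p = 1) and -0.90 without the 2 farthest arrays, so such values depend on a few arrays. With the dentate mean as a covariate, Grik4 had a difference of -0.047 (adjusted p = 0.796 by limma), and with the interneuron mean -0.014 (adjusted p = 0.942). The calls over all probe sets numbered 163 with the dentate covariate and 300 with the interneuron covariate, against 319.

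The balance between dimmer and brighter probe sets of the same genes, a measure over 350 genes without the kainate subunits, was -3.42 ± 0.11 in control and -3.25 ± 0.03 in learning arrays (SD, n = 7 each, exact permutation p = 5.83e-04, adjusted p = 0.00874). It moved with the group as the dimmer probe sets of Adarb1, Cdh2, Gria3, Pfn2, Ppp3cb and Ppp3r1 did. Its part in those changes, and in the rises of Gria1 and Grin2a, was not tested. The balance did not overlap between the groups, with at most -3.34 in control and at least -3.30 in learning arrays. A fit with the balance as a covariate can therefore hardly separate it from group. In that fit limma called 0 of the 9525 probe sets, while 854 had an unadjusted p under 0.05. The Gapdh 3'/5' ratio, a sign of RNA integrity, was 0.51 ± 0.06 in control and 0.45 ± 0.05 in learning arrays (log2, exact permutation p = 0.0443, adjusted p = 0.121). With it as a covariate the difference was -0.17 for Grik2 (unadjusted p = 0.0248, adjusted p = 0.282 by limma), -0.038 for Grik4 (adjusted p = 0.903) and -0.048 for Grik5 (adjusted p = 0.831). Control replicate 5 had both the highest Gapdh ratio (0.64) and the lowest Grik2 level (6.42), and that fit was not repeated without it.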

How the data were processed

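The authors deposited 1 table of log2 expression values made with GCRMA, per the submitters' processing notes, for 14 Affymetrix RAE230A arrays. GCRMA's settings were not stated in the sources used here. The values themselves showed a log2 scale. GCRMA compresses differences near background, which limits Grik1 and Grik3. Groups and replicate numbers come from sample titles, which call the samples biological replicates. The array platform's annotation named 1 gene for 12789 probe sets, 12754 of which were matched by Entrez ID to RefSeq (GRCr8). No coordinates or probe sequences are given.

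After 57 control and 6341 dim probe sets were left out, 9525 entered limma 3.58.1 (R 4.3.3; lmFit, eBayes) without covariates. Benjamini-Hochberg adjustment covered all 9525, and a probe set was called below 0.05. Only called ones are said to rise or fall. Single values were compared by two-sided exact permutation over all assignments of arrays, with intervals from inverting that test, and correlations over 5040 pairings. Each gene entered at its brightest tested probe set. The procedure was tested on simulated data. The number of arrays limits the precision.

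Members, lists, tests and alternatives were chosen with earlier results of these data known. The comparison with AMPA and NMDA subunits and the correlations with marker means were added after the values were seen. Named were all 5 member probe sets, every called partner, the 2 other partners with the lowest p and the 2 brightest, Neto1, Neto2, Adarb1 and C1ql2, and the 3 genes most like each tested member. Alternatives were other filters, variance models, array weights, normalisations, covariates, a replicate block and leaving out each array.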

Additional observations from a re-analysis of the deposited data

Results flagged for a closer look

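In 40 groups of 7 arrays tested with Dixon's criterion, 5 held an array far from the others, where chance alone flags about 1 in 20 groups. Grik1 had its lowest control value in replicate 6, at 2.28 against 2.36 for the next, and its highest learning value in replicate 4, at 2.39 against 2.37 for the next. Both concern a dim probe set. Control replicate 5 stood apart in 3 measures of the array: the Gapdh 3'/5' ratio was 0.64 (next 0.52), the hexokinase 3'/5' ratio 2.57 (next 1.61) and the balance between dim and bright probe sets of a gene -3.65 (next -3.44). The same array had the lowest Grik2 level, and without it the Grik2 difference was -0.095 (adjusted p = 0.489 by limma).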

How the results depend on the processing

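Over 30 alternatives, 0 of the tested kainate subunits were called in limma in any, and the adjusted p of a subunit was never below 0.282. The unadjusted p was under 0.05 once, for Grik2 with the Gapdh ratio as covariate (0.0248). Grik2 kept a difference below 0 in all 30, between -0.17 and -0.017. Grik4 had 0.036 with the spike-in level as covariate, and Grik5 had 0.077 with the balance of probe sets as covariate, and the cause was not tested. The spike-in level was itself 5.38 ± 0.06 in control and 5.45 ± 0.08 in learning arrays (log2, SD, exact permutation p = 0.0414, adjusted p = 0.121). With it as covariate the calls over all probe sets numbered 169. Over all 30 alternatives Grik4 ran from -0.061 to 0.036 and Grik5 from -0.11 (spike-in level as covariate, unadjusted p = 0.0917) to 0.077. Leaving out 1 array gave -0.061 to 0.021 for Grik4 and -0.072 to 0.0042 for Grik5. The shift between subunits ran from -0.081 to 0.034 for Grik2 minus Grik4, from -0.071 to 0.030 for Grik2 minus Grik5 and from -0.057 to 0.082 for Grik4 minus Grik5 without 1 array, so their signs carry no information. The partner genes called higher numbered 2 to 4 without 1 array, 2 with a replicate block and 6 with the mean of all tested probe sets of a gene, against 3. With the replicate block the differences of Grik2, Grik4 and Grik5 were -0.050, -0.015 and -0.039 (adjusted p = 0.803, 0.949 and 0.732), and it changed no call of theirs. The titles give same-numbered samples only a shared number and state no pairing. The correlations of their deviations ran from -0.16 to 0.13, and 2 of 7 control arrays correlated best with their own number. Over the whole array the calls fell from 319 to 39 with the Gapdh ratio as covariate and to 0 with the probe set balance. The balance did not overlap between the groups, so that fit can hardly separate it from group. Each gene had 1 probe set, so no comparison of probe sets within a subunit was possible. The comparison of AMPA and NMDA subunits with kainate subunits was not repeated under the alternatives.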
